A study of Homo sapiens with 15 samples.

Results

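Gene expression after 6 h of infliximab was compared with that of untreated THP-1 cells, an established line grown from a human acute monocytic leukaemia and used as a model of monocytes. The comparison set 3 arrays of cells exposed to infliximab for 6 h against 3 arrays of untreated cells taken at 0 h, over every probe set that is not an array control. These 6 arrays are part of a series of 15, in 5 groups of 3, which also holds infliximab at 24 h and the agent CDP870 at 6 and 24 h. Of 54613 probe sets that are not controls, 28897 passed a filter on low values and were tested, and they represented 13607 named genes. No genotype, allele or further agent is given for any group, and no dose or culture condition was found in the labels. Infliximab is a chimeric IgG1 antibody against tumour necrosis factor (TNF). CDP870, known as certolizumab pegol, is a PEGylated Fab' fragment against the same cytokine that has no Fc part. The untreated cells were all taken at 0 h, so drug and 6 h in culture cannot be told apart in this comparison. CDP870 at 6 h is the only other group of that age. Arrays within a group are named biological replicates in the design text, with nothing on whether their cultures were separate. The p-values therefore rest on array-to-array spread alone, which may be technical, and 3 arrays a group limit the precision.

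In mammalian cells, phosphorylation of the initiation factor eIF2 lowers general translation and raises translation of ATF4, a bZIP transcription factor. ATF4 with its partners of the C/EBP family raises genes of amino acid synthesis, amino acid uptake and tRNA charging. Ribosome assembly, tRNA maturation and nucleotide synthesis are the other side of the same growth economy. In growing cells they take a large part of the resources, and they are commonly reduced when amino acids or growth signals are short.

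Array medians over probe sets other than controls ran from 2.93 to 3.07 on the log2 scale. Of the 16 tested monocyte and THP-1 marker genes, 1 rose (FCER1G) and 1 fell (CTSG, a granule protease gene). With 1 array left out 1 rose and 0 or 1 fell. The mean log2 value of the 16 per array was 7.73 to 8.04 in untreated cells and 7.86 to 7.98 after infliximab for 6 h. Granule and lineage genes of THP-1 cells such as ELANE, AZU1 and CEBPA were read strongly in both groups (group means 10.01 or more), while CD14 and VCAN did not pass the filter on low values. A set of 3 arrays was treated as standing apart, on the basis of earlier results of these data: untreated replicate 3 and infliximab 24 h replicates 5 and 6. Their limma array weights were 0.29 (the lowest of the 15 arrays), 0.36 and 0.71. Infliximab 24 h replicate 7 had 0.43 and CDP870 24 h replicate 13 had 0.52, both below 0.71, so the weights do not single out this set. The labelled spike-in RNAs added before hybridisation read 7.71 to 7.78 on the infliximab 6 h arrays (mean 7.75 ± 0.04 SD) and 7.23 to 7.46 on the untreated arrays (7.38 ± 0.13 SD), with no overlap. The CDP870 6 h arrays lay between and beside them, at 7.38 to 7.63. The 3' minus 5' differences of the GAPDH control probe sets were small in both groups, between -0.13 and -0.01 after infliximab and between -0.06 and -0.02 without it.

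Infliximab for 6 h was accompanied by many changes of moderate size in both directions. Of 28897 probe sets, 2432 (8.42%) passed an adjusted p of 0.05 with limma, 1161 (4.02%) higher and 1271 (4.4%) lower than untreated. With 1 probe set per gene, 1391 of 13607 genes (10.2%) were called, 615 (4.52%) higher and 776 (5.7%) lower. The increases reached further than the decreases. Of the higher probe sets, 384 changed by under 0.5 on the log2 scale, 626 by 0.5 to 1, and 151 by 1 or more, with a median of 0.59 (1.5-fold) and a largest value of 3.23. Of the lower probe sets, 730 changed by under 0.5, 535 by 0.5 to 1 and only 6 by 1 or more, with a median size of 0.48 (1.39-fold) and a largest of 1.35. The median log2 change of all tested probe sets was -0.04. Over all tested probe sets the 3 and 3 values were separated upward for 12.4% and downward for 17.1%. Among the calls, which were selected on the same values, 1154 higher and 1267 lower ones were separated, a description that adds nothing to the test. Genes named for the smallest p of their size were required to have separated groups, so their separation is no finding either.

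**Figure D1:**
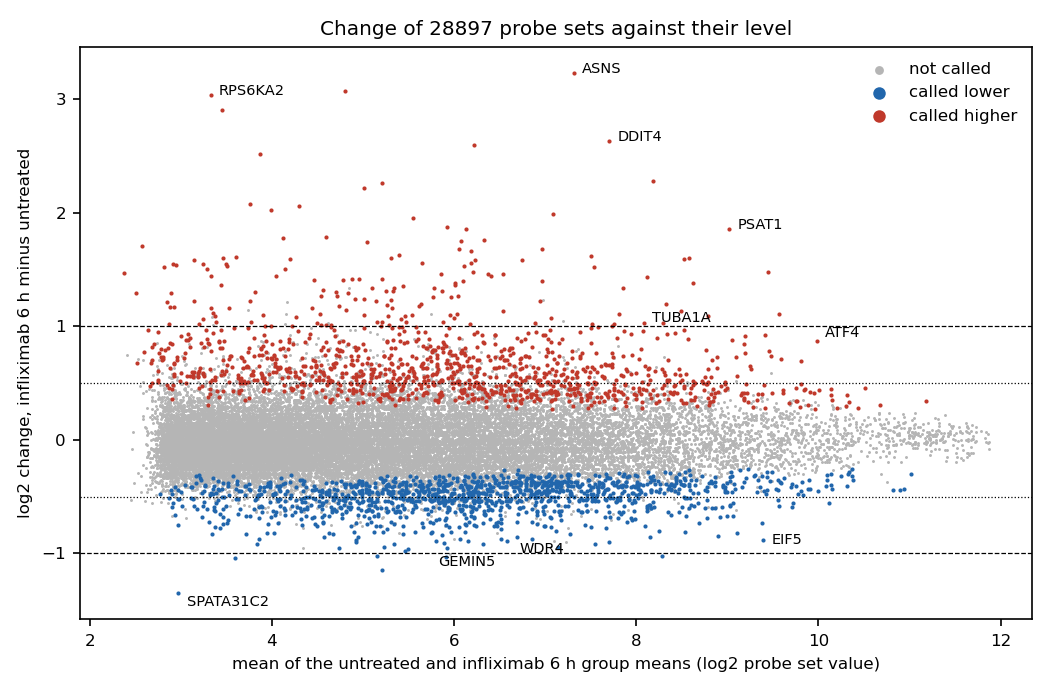
The log2 change of each tested probe set (infliximab 6 h minus untreated, vertical axis) is plotted against the mean of the 2 group means (horizontal axis, log2 probe set value). Red and blue points are the 1161 higher and 1271 lower calls, grey points were not called, and the dotted and dashed lines mark changes of 0.5 and 1. The increases spread up to 3.23, while nearly all decreases stay within 1 of the zero line.

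The tested probe sets were divided by mean level into 3 bands of nearly equal number, and 814 of the 1271 decreases lay in the top band. There 6.22% of probe sets were higher and 8.45% lower, in the middle band 3.72% and 3.65%, and in the bottom band 2.12% and 1.09%. The median standard error was 0.11 in the top band, 0.13 in the middle one and 0.14 in the bottom one. Long non-coding RNA genes made up 3.53% of the higher calls with 1 symbol (37 probe sets) and 0.712% of the lower ones (8 probe sets), against 4.14% of those tested. Among 6372 genes with several tested probe sets, 189 had at least 2 called higher and 136 at least 2 called lower, and 3 genes (ANAPC7, NUDT13 and SYNPO2) had calls in both directions. The total fell to 1487 calls without untreated replicate 3, and to 1259, 1156 and 1326 without infliximab replicate 8, 9 and 10, while it was 4588 with arrays weighted by their quality. Adding the spike-in level to the model left 181 calls, 141 higher and 40 lower, and the part of the spike-in difference in the other calls was not tested further, since that level and the treatment moved together in these 6 arrays. A gene list below with no count given for this covariate had no call under it. Over all genes 4.52% were called higher and 5.7% lower, the shares beside which each list count below is to be read. All lists were chosen with earlier results of these data known, so an excess in any of them is no independent evidence.

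Many genes of bZIP stress factors and their targets were higher. Of 48 tested genes of that list, 26 rose and 2 fell, with a median log2 change of 0.48 against -0.05 over all genes. With the spike-in covariate 19 rose and none fell. This list, too, was chosen with earlier results of these data known, so its excess only describes them. ATF4 itself rose moderately. Its log2 values were 9.54, 9.64 and 9.47 on untreated replicates 2, 3 and 4 and 10.38, 10.48 and 10.39 on infliximab replicates 8, 9 and 10, and values below are given in that order of arrays. The lowest treated array stood well above the highest untreated one, a rise of 0.87 ± 0.08 (SE), or 1.82-fold, with a limma adjusted p of 1.7e-05. DDIT3, which encodes the C/EBP relative CHOP, rose by 1.27 ± 0.13 (limma adjusted p = 3.41e-05). ATF3, another stress-induced bZIP factor, read 3.69, 4.02 and 3.49 without and 3.97, 3.88 and 3.56 with infliximab, and the groups overlapped (difference 0.07 ± 0.15, limma adjusted p = 0.828). The 2 members that fell were BATF, a bZIP factor of lymphoid cells, by 0.45, and the proline synthesis gene ALDH18A1 by 0.46.

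PCK2 and PHGDH were among the large increases. The mitochondrial phosphoenolpyruvate carboxykinase gene PCK2 read 5.24, 5.18 and 5.18 in untreated cells and 6.99, 7.18 and 7.01 after infliximab, a 3.63-fold rise (1.86 ± 0.11, limma adjusted p = 1.82e-07). The tight grouping of the arrays put the change far above the spread. PHGDH, the first enzyme of serine synthesis, rose by 1.6 ± 0.1, and PDK1, a kinase that inhibits pyruvate dehydrogenase, rose by 0.84 ± 0.19. The pyruvate dehydrogenase subunit gene PDHA1 fell by 0.38 and the citrate cycle genes IDH3B and SDHA fell by 0.43 and 0.33. Among 31 tested genes of pyruvate entry and the citrate cycle those were the only calls, 2 higher (6.45%) and 3 lower (9.68%). Over all genes 4.52% were higher and 5.7% lower. The median of the list was -0.02, and with 1 array left out 1 or 2 rose and 0 to 3 fell. No fall was called without infliximab replicate 8 and 1 without untreated replicate 3 or infliximab replicate 9 or 10, and with the spike-in covariate 1 rose and none fell.

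Most genes that charge cytosolic tRNA were called higher. Of 17 cytosolic aminoacyl-tRNA synthetase genes 11 rose, 3 fell and 3 did not pass the test (HARS1 at -0.08, KARS1 at -0.03 and RARS1 at -0.29), and the median change was 0.49. WARS1 (tryptophan) read 7.8, 7.67 and 7.73 without and 9.31, 9.45 and 9.21 with infliximab, a 3.01-fold rise. CARS1 (cysteine) rose by 1.13 ± 0.09 and GARS1 (glycine) by 1.11 ± 0.08. SARS1, TARS1, YARS1, AARS1 and EPRS1 rose by 0.75, 0.73, 0.73, 0.7 and 0.63, and IARS1, NARS1 and LARS1 by 0.49, 0.48 and 0.38. Both subunits of the phenylalanine enzyme went the other way. FARSA read 7.76, 7.88 and 7.81 without and 6.94, 7.08 and 7.17 with infliximab, a fall by 0.75 ± 0.1 (limma adjusted p = 0.000434) that its second probe set also showed (-0.74). FARSB fell by 0.4 and the valine enzyme gene VARS1 fell by 0.77. When any 1 of the 6 arrays was left out, 9 or 10 of the list rose. The number that fell was 3 without untreated replicate 3 and 1 when any other array was left out. With the spike-in covariate 5 rose and 1 fell, at a median of 0.42.

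No mitochondrial counterpart of these enzymes was called higher. Of 15 mitochondrial tRNA synthetase genes none was higher and 1 (6.67%) was lower (LARS2, fell by 0.48 ± 0.13), with a median of -0.15. Over all genes 4.52% were higher and 5.7% lower, so in a list of 15 neither count stands out from those shares. With 1 array left out none rose and 0 or 1 fell, and the call of LARS2 was lost in several of these settings.

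Some amino acid carriers were also higher. Of 20 tested transporter genes 7 rose, 2 fell and 11 did not pass the test, with a median of 0.21. SLC7A5, the light chain of the large neutral amino acid carrier LAT1, read 7.26, 7.77 and 7.41 without and 8.43, 8.46 and 8.33 with infliximab. The treated arrays agreed closely while the untreated ones were spread, and the rise was 0.93 ± 0.14, or 1.9-fold (limma adjusted p = 0.00145). Its heavy chain gene SLC3A2 rose by 1.02 ± 0.09, the cystine carrier gene SLC7A11 by 1.58 ± 0.17, and SLC38A1, SLC1A4, SLC38A2 and SLC1A5, carriers of neutral amino acids, by 1.2, 1.03, 0.69 and 0.67. SLC7A6, the light chain of an exchanger of basic and neutral amino acids, and the lysosomal amino acid carrier gene SLC36A4 each fell by 0.41. Both falls were lost without untreated replicate 2 or 4 or infliximab replicate 8 or 9, while 7 increases were counted in each of those settings. With the spike-in covariate 4 rose and none fell.

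The promoters of the large increases can be compared with those of the moderate ones by a short sequence. A composite C/EBP-ATF element, written here as TGATGNAA and searched on both strands in the 250 bases upstream of each RefSeq start (GRCh38.p14), was found for 10 of 62 genes that rose by 1 or more (16.1%). It was found for 7 of 238 genes that rose by 0.5 to 1 (2.94%), for 5 of 193 that rose by less (2.59%), for 12 of 668 that fell (1.8%) and for 270 of 10902 tested genes with a promoter in the table (2.48%). Over all 27305 genes of the table the share was 3.89%. The share in the moderate increases was thus close to that of all tested genes. ATF4-type letters were near the start of only a small part of the genes that rose, and a match is a description of letters, not a bound site. The windows below show the matched letters in capitals within 30 bases of the gene's strand, 5' to 3', for 8 genes that rose by 0.89 or more. S100P, JDP2, BCAT1 and AJUBA were chosen after their values were seen.
ASNS, chr7:97872458-97872487, minus strand: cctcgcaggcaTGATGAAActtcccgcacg
CHAC1, chr15:40953251-40953280, plus strand: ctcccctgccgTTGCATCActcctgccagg
GARS1, chr7:30594834-30594863, plus strand: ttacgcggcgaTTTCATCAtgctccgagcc
S100P, chr4:6693744-6693773, plus strand: acaacgatgcaTTTCATCAgaactgagcac
JDP2, chr14:75427992-75428021, plus strand: tatatagccggggcTGATGCAAcccgtccc
BCAT1, chr12:24949131-24949160, minus strand: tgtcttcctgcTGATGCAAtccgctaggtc
AJUBA, chr14:22976858-22976887, minus strand: gcaaattggaaTTGCATCAgatggaatttt
HERPUD1, chr16:56931955-56931984, plus strand: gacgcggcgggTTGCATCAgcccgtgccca

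The matched letters began 68 bases upstream of the start for ASNS, 209 for CHAC1, 33 for GARS1, 123 for S100P, 16 for JDP2, 48 for BCAT1, 34 for AJUBA and 176 for HERPUD1. These genes serve different functions. GARS1 charges tRNA with glycine, CHAC1 degrades glutathione, JDP2 is a bZIP repressor, BCAT1 transaminates branched-chain amino acids, S100P is a calcium-binding protein, and AJUBA is a LIM domain scaffold. HERPUD1 acts in degradation at the endoplasmic reticulum (ER). Their log2 increases were 3.23 (ASNS), 2.22 (CHAC1), 1.11 (GARS1), 1.62 (S100P), 1.56 (JDP2), 1.03 (BCAT1), 1.3 (AJUBA) and 0.89 (HERPUD1).

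**Figure D2:**
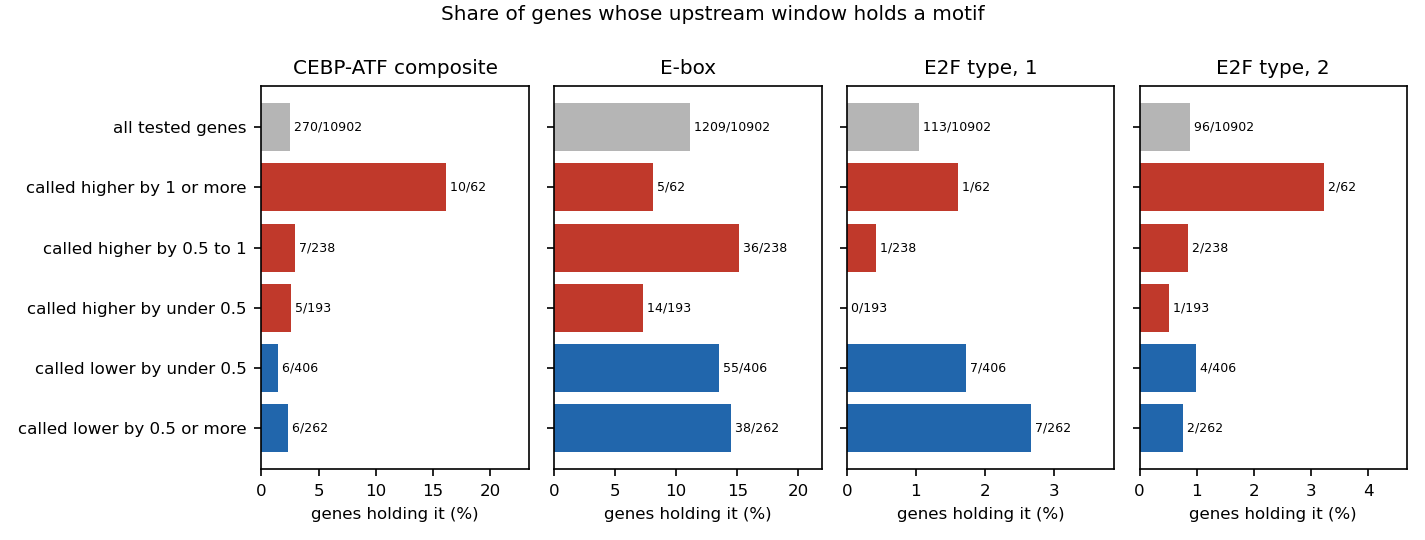
Bars give the percentage of genes whose 250 upstream bases hold each of 4 sequences (C/EBP-ATF composite, E-box CACGTG, and the E2F-type sequences, type 1 TTTGGCGC and type 2 TTTCGCGC), for all tested genes (grey), genes called higher (red) and genes called lower (blue) in bands of log2 change. The numbers beside the bars are genes holding the sequence over genes with a promoter, and each panel has its own horizontal scale. The longest bar of the composite stands for 10 of 62 genes, that of E2F type 2 for 2 of 62.

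Beyond these, the moderate increases covered many functions. TUBA1A, an alpha tubulin, had the smallest p among rises of 0.5 to 1. It read 7.62, 7.58 and 7.6 without and 8.55, 8.52 and 8.6 with infliximab, a 1.94-fold rise (0.96 ± 0.08, limma adjusted p = 4.86e-06). The arrays within a group lay within 0.08 of each other. A beta tubulin gene went down, since TUBB4B read 10.04, 10.14 and 10.05 without and 9.55, 9.61 and 9.6 with infliximab (fell by 0.49 ± 0.08, limma adjusted p = 0.0015), and its second probe set fell by 0.48.

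Regulators of transcription and growth formed one part of the moderate increases. CEBPB, a C/EBP factor that can pair with ATF4 and that acts in monocyte differentiation, read 8.5, 8.78 and 8.57 without and 9.47, 9.5 and 9.51 with infliximab. The treated values nearly coincided, 0.88 ± 0.09 above the untreated mean (1.84-fold, limma adjusted p = 5.67e-05). BTG1, an antiproliferative adaptor, rose by 0.93 ± 0.08 and on its second probe set by 0.79. In all, 9 of 39 tested myeloid transcription factors rose and none fell, with a median of 0.16. Among them KLF10, a TGF-beta-induced zinc finger factor, rose by 0.93 ± 0.17, KLF2, which restrains inflammatory gene expression in monocytes, by 0.86 ± 0.13, RUNX2 by 0.87, CEBPG by 0.62 and MXI1, an antagonist in the MAX network, by 0.56 ± 0.08. With the spike-in covariate 1 of them rose, at a median of 0.2.

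Enzymes and carriers of intermediary metabolism formed another part. ASS1, which makes argininosuccinate from citrulline, read 8.66, 8.87 and 8.7 without and 9.76, 9.72 and 9.47 with infliximab, and rose by 0.91 ± 0.11 (1.87-fold). G0S2, an inhibitor of lipolysis, rose by 0.9 ± 0.08, DHRS3, a retinal reductase, by 0.92 ± 0.09, and PRPSAP1, a regulatory subunit associated with phosphoribosyl pyrophosphate synthase, by 0.86 ± 0.1. In the list of fatty acid synthesis 2 of 16 genes rose (ACSL1, an acyl-CoA synthetase, by 0.63, and the malic enzyme ME1 by 0.47) and 1 fell (HACD3, by 0.43). In that of fatty acid oxidation and lipid droplets 2 of 21 rose (ETFDH by 0.43 and ECI1 by 0.39) and 1 fell (FABP5, by 0.39), and neither rise was called without untreated replicate 2 or any of the infliximab arrays. The synthesis list had 12.5% higher and 6.25% lower and the oxidation list 9.52% and 4.76%, against 4.52% and 5.7% of all genes. Sterol synthesis genes had no increase among 18, against 4.52% higher over all genes. EBP and NSDHL each fell by 0.53, which makes 11.1% lower, against 5.7% of all genes.

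Genes of the cell surface were called higher over a range of sizes. IL31RA, a cytokine receptor chain, rose by 0.96 ± 0.11, CACNA2D4, a calcium channel subunit, by 0.92 ± 0.08, and the membrane protein gene TMEM154 by 0.95 ± 0.08. CD53, a leukocyte tetraspanin, read 7.27, 7.18 and 7.13 without and 7.88, 7.75 and 7.87 with infliximab, a smaller rise of 0.64 ± 0.08. CD300A, an inhibitory receptor of myeloid cells, read 4.06, 3.68 and 3.97 without and 4.75, 5.43 and 5.33 with infliximab, with replicate 8 the lowest of the treated arrays, a rise of 1.27 ± 0.16 that is above the moderate range. Of 23 scavenger and C-type lectin receptor genes 1 rose (4.35%, against 4.52% of all genes) and none fell, and 1 rose with the spike-in covariate. Of 30 chemokine and cytokine receptor genes 6 rose and none fell. CSF2RA, the GM-CSF receptor alpha chain, rose by 0.9 ± 0.17, TGFBR1 by 0.66, CX3CR1, the fractalkine receptor, by 0.54 ± 0.1, IL10RB by 0.51 ± 0.08, CCR1 by 0.4 and IL15RA by 0.35. Without infliximab replicate 8, 9 or 10 the count of this list was 3, and with the spike-in covariate it was 0. Among 20 complement and coagulation genes 3 rose, with CD55, a shield against complement, at 0.7 ± 0.13 and higher on all 3 of its probe sets (0.7 to 1.26). The complement count was 1 with any array but untreated replicate 3 left out.

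A few lysosomal genes were higher by small amounts. Of 29 tested genes 6 rose, none fell and 23 did not pass the test, with a median of 0.11. ASAH1, acid ceramidase, read 7.36, 7.27 and 7.53 without and 8.15, 8.13 and 8.06 with infliximab (0.73 ± 0.1, limma adjusted p = 0.000856). All treated arrays lay above all untreated ones. CTSS, a cysteine protease of antigen processing, rose by 0.62 ± 0.13, TPP1 by 0.6, the fucosidase FUCA1 by 0.54, the saposin precursor PSAP by 0.51 and the cholesterol carrier NPC2 by 0.4. SCPEP1, a serine carboxypeptidase named outside that list, rose by 0.74 ± 0.08. Of 32 autophagy genes 4 rose and none fell: WIPI1 by 0.49, MAP1LC3B by 0.48, GABARAP by 0.46 and the cargo receptor SQSTM1 by 0.36. Of 17 proton pump subunits 1 rose (ATP6V1G1, by 0.41), or 5.88% against 4.52% of all genes, at a median of -0.05. Without infliximab replicate 9 the lysosomal count was 3, and the autophagy count was 0 without untreated replicate 2 or infliximab replicate 9 or 10, 1 without infliximab replicate 8 and 2 without untreated replicate 4. Both were 0 with the spike-in covariate, at medians of 0.15 and 0.04.

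**Figure D3:**
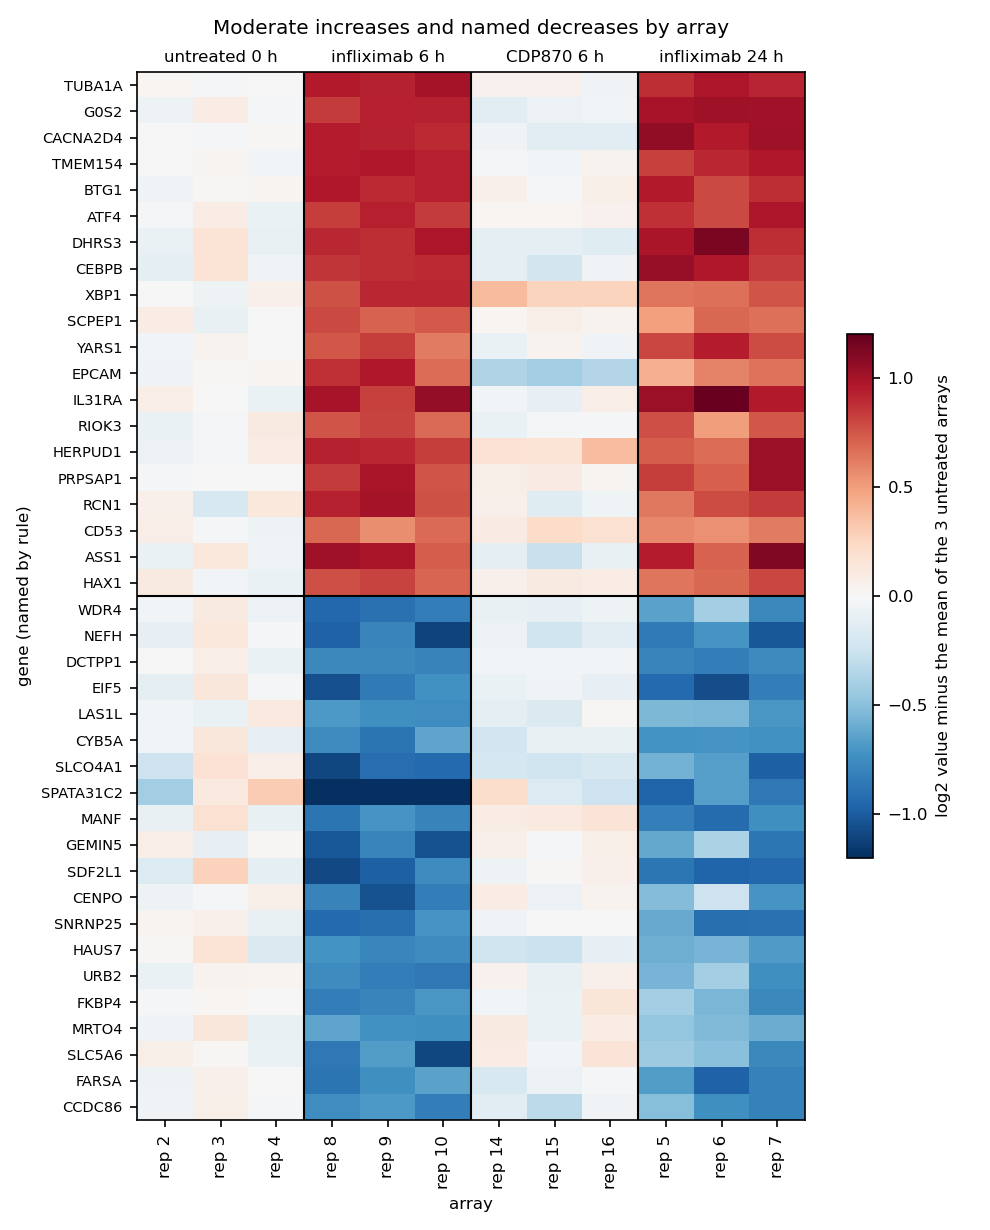
Each row is a gene and each column an array, and the colour is the log2 value minus the mean of the 3 untreated arrays (red higher, blue lower, scale cut at 1.2). The upper block holds the 20 moderate increases and the lower block the 20 decreases of 0.5 or more with the smallest p. All 3 infliximab 6 h arrays take the same colour in every row, which the choice of genes with separated groups required. The CDP870 6 h arrays are near white except for EPCAM, XBP1 and a few paler cells.

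Decreases were shallower, and several lists of growth machinery had many of them. Of the tested genes, 47.9% of ribosome biogenesis, 33.3% of nuclear pore and 31.8% of replication genes were lower, against 5.7% of all genes. These lists were chosen with earlier results of these data known, so their excess is no independent evidence. The share of all genes is not matched for level, and in the top band by level 8.45% of probe sets were lower. With the spike-in covariate none of these lists had a call. Among the 20 decreases of 0.5 or more with the smallest p were genes of rRNA and ribosome assembly (LAS1L, URB2, MRTO4, CCDC86), of tRNA and snRNP handling (WDR4, GEMIN5, SNRNP25), of mitosis (CENPO, HAUS7) and of protein folding (MANF, SDF2L1, FKBP4). DCTPP1, a pyrophosphatase that clears modified dCTP, read 8.06, 8.14 and 7.98 without and 7.29, 7.29 and 7.26 with infliximab, and fell by 0.78 ± 0.09 (limma adjusted p = 0.000107). The infliximab arrays were almost equal, and they lay below every untreated array, which was a condition of the choice of these genes. NEFH, a neurofilament gene, fell by 0.96 ± 0.11, SLCO4A1, an organic anion carrier, by 0.98 ± 0.12, SLC5A6, the sodium-dependent multivitamin carrier, by 0.87 ± 0.11, and CYB5A, cytochrome b5, by 0.76 ± 0.09. SPATA31C2 had the largest fall, by 1.35 ± 0.17, from 3.23, 3.77 and 3.95 to 2.31, 2.16 and 2.42, at the low end of the scale, where the median standard error was largest. Its treated values lay below the medians of their arrays (2.97 to 2.98), the level of the filter. This probe set was therefore tested only through arrays of other groups, and the size of its fall rests on values under the filter. With the spike-in covariate 15 of these 20 calls remained, and SNRNP25, URB2, FKBP4, MRTO4 and CCDC86 were lost.

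Ribosome biogenesis was the list with the lowest median. Falls were called for 23 of 48 tested genes and rises for none, at a median of -0.36, and 43 of 48 were below 0. NOP16, a nucleolar assembly factor, read 8.86, 9.01 and 8.77 without and 8.27, 8.22 and 8.34 with infliximab (fell by 0.6 ± 0.1, limma adjusted p = 0.00303). NOP2, a methyltransferase of 28S rRNA, read 6.81, 6.78 and 6.77 without and 6.18, 6.29 and 6.24 with infliximab (fell by 0.55 ± 0.1). In both genes the lowest untreated array lay above the highest treated one. UTP20, of the small subunit processome, fell by 0.76 ± 0.13, MRTO4, which primes the stalk of the large subunit, by 0.63 ± 0.09 on the probe set used for the list and by 0.7 on the other, and RRP9, of the U3 snoRNP, by 0.47 ± 0.08. The list median, taken gene by gene against the untreated mean, was -0.34, -0.3 and -0.39 on the infliximab 6 h arrays and -0.01, -0.08 and -0.04 on the CDP870 6 h arrays. The count was 11 to 14 when any 1 of the 6 arrays was left out, 30 without the 3 arrays that stand apart and 0 with the spike-in covariate, where the median was -0.37.

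A few genes of the polymerases that transcribe rRNA and tRNA were lower. Of 32 genes of RNA polymerases I and III and their factors 6 fell, 1 rose and 25 did not pass the test, with a median of -0.2. POLR1G fell by 0.59 ± 0.13, POLR3K by 0.55 ± 0.11, POLR1A by 0.54 ± 0.13, POLR3B by 0.52, and the factors UBTF and GTF3C2 by 0.43 each. POLR3GL, the alternative to the RPC7 subunit, rose by 0.39. The lower count was 2 to 5 with an array left out, and 2 without infliximab replicate 8. With the spike-in covariate none was called, at a median of -0.25.

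The protein components of ribosomes differed by compartment. None of 52 cytosolic ribosomal protein genes was called, and their median was 0.06. The list holds 78 genes, and only these 52 were named on the array. Their changes ran from -0.11 to 0.8, and the smallest p were those of RPS25 and RPL9. RPS25 was at 0.24 ± 0.08 (limma adjusted p = 0.0902) and RPL9 at 0.17 ± 0.08 (0.197). With a trended robust prior 6 were called higher, with array weights 2, and with 1 array left out 0. Mitochondrial ribosomal protein genes were lower in 17 of 75 cases and higher in none (median -0.18). MRPS17 read 7.85, 7.66 and 7.67 without and 6.96, 7.11 and 7.2 with infliximab (fell by 0.64 ± 0.1, limma adjusted p = 0.00145), MRPS12 fell by 0.64 ± 0.12 and MRPS14 by 0.48 ± 0.09. The mitochondrial count was 7 without untreated replicate 3, 7, 6 and 10 without infliximab replicates 8, 9 and 10, and 0 with the spike-in covariate, at a median of -0.19.

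Some genes of tRNA maturation were lower. Of 40 tested genes 10 fell and 3 rose, with a median of -0.24. GEMIN5, an RNA-binding protein of snRNP assembly placed in that list, read 6.48, 6.3 and 6.41 without and 5.38, 5.6 and 5.35 with infliximab (fell by 0.95 ± 0.12, 1.94-fold, limma adjusted p = 0.000277). WDR4, a subunit of the tRNA guanosine-7 methyltransferase, read 6.99, 7.13 and 6.96 without and 6.08, 6.13 and 6.2 with infliximab (fell by 0.89 ± 0.1, limma adjusted p = 8.32e-05). Both were apart in all arrays, a condition of their choice among the named decreases. WDR4 was lower on a second of its 3 probe sets while the third moved by -0.03. The RNase P subunit genes POP1, POP7, POP4 and RPP40 fell by 0.95, 0.51, 0.49 and 0.37, and the pseudouridine synthase PUS7 by 0.65. TSEN15, a subunit of the tRNA splicing endonuclease, rose by 0.95 ± 0.15 and was higher on all 3 of its probe sets (0.64 to 1.02). ELAC1 and the tRNA exporter gene XPOT rose by 0.6 and 0.46. The lower count was 6 without infliximab replicate 8, and with the spike-in covariate 2 fell and none rose.

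Translation factors moved in both directions, with 4 of 43 higher and 5 lower and a median of 0.01. EIF5, which triggers GTP hydrolysis by eIF2 at the start codon, read 9.71, 9.97 and 9.81 without and 8.78, 8.98 and 9.1 with infliximab (fell by 0.88 ± 0.1, 1.84-fold, limma adjusted p = 0.000138). All 5 of its probe sets were lower, by 0.75 to 1.02. EIF1, which with EIF5 sets the stringency of start codon choice, rose instead, by 0.34 ± 0.07 on its brightest probe set, and 5 of its 7 probe sets were higher, and none lower. EIF4EBP1, an inhibitor of cap-dependent initiation, read 7.11, 7.49 and 7.13 without and 8.32, 8.28 and 8.2 with infliximab, a rise of 1.02 ± 0.11 (2.03-fold, limma adjusted p = 5.26e-05). Its untreated replicate 3 was the high one of its group and still lay below all treated arrays. The cap complex scaffold EIF4G1 fell by 0.76 and EIF3B by 0.6 ± 0.13. With 1 array left out 2 or 3 of the list rose and 2 to 5 fell, and with the spike-in covariate 1 rose and 1 fell.

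Among nucleotide synthesis genes a minority was lower and none higher. Of 26 genes 7 fell and 19 did not pass the test, with a median of -0.21, and the count was 6 or 7 whichever array was left out. The pyrimidine genes CAD, UMPS, DHODH and CTPS1 fell by 1.03, 0.5, 0.47 and 0.56, the purine gene PFAS by 0.7 and the nucleoside diphosphate kinase gene NME1 by 0.43 ± 0.08. With the spike-in covariate 2 fell, at a median of -0.27.

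Some genes of DNA replication and repair were lower by small amounts. Replication licensing and fork genes were lower in 14 of 44 cases and higher in none (median -0.28). CDC45, of the replicative helicase, read 7.1, 7.09 and 7.08 without and 6.56, 6.69 and 6.58 with infliximab (fell by 0.48 ± 0.08, limma adjusted p = 0.00269). MCM4 fell by 0.64 ± 0.11, POLA2, a subunit of DNA polymerase alpha, by 0.61 ± 0.1 and cyclin E1 (CCNE1) by 0.56 ± 0.11. Of 37 repair and Fanconi genes 11 fell and 1 rose, with FANCI at -0.58, PARP1 at -0.57, BLM at -0.53 and FANCE at 0.42. Of 46 genes of mitosis and cytokinesis 6 fell and none rose, among them CDC20, an activator of the anaphase-promoting complex, by 0.59 ± 0.1 and MKI67 by 0.6 ± 0.14. Histone genes did not share this direction, as 4 of 14 rose and none fell. H2AC6 read 3.7, 3.38 and 3.4 without and 4.68, 4.27 and 4.52 with infliximab (1 ± 0.16, limma adjusted p = 0.00195), and H2BC12, H2BC5 and H2BC6 rose by 0.47, 0.39 and 0.39. Histone genes are near copies of each other, so probe sets may not tell them apart. Leaving out infliximab replicate 9 or 10 reduced the replication count to 9 or 7, the repair count was 4 to 7, the mitosis count 2 to 5 and the histone count 2 with any array left out, and all were 0 with the spike-in covariate, at medians of -0.27, -0.36, -0.23 and 0.2.

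An E2F-type sequence is found near the start of many replication genes, and the data give its share in these windows. The letters TTTGGCGC, on either strand, were present in 5 of 38 replication genes with a promoter (13.2%), in 14 of 668 genes that fell (2.1%), in 2 of 493 that rose (0.406%) and in 113 of 10902 tested genes (1.04%). A related string, TTTCGCGC, did not show that order. It was present in 3 of 38 replication genes (7.89%), 6 of 668 that fell (0.898%), 5 of 493 that rose (1.01%) and 96 of 10902 tested genes (0.881%). Windows of POLA1 and POLA2, genes of the catalytic and the B subunit of DNA polymerase alpha that fell by 0.52 and 0.61, are shown because they hold one string each, 137 and 53 bases upstream of the start, with the match in capitals on the gene's strand.
POLA1, chrX:24693770-24693799, plus strand: gtcatcacaggGCGCCAAAcgcgcgtccgc
POLA2, chr11:65261898-65261927, plus strand: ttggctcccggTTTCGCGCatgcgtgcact
The E-box CACGTG is a site of MAX network and TFE factors. It was present in 13.9% of genes that fell, 11.2% of those that rose and 11.1% of all tested genes. By size of the rise its share was 8.06% at 1 or more, 15.1% at 0.5 to 1 and 7.25% under 0.5. The E-box was present in 8 of 43 ribosome biogenesis genes (18.6%). None of these 4 sequences holds another, and they are 4 of 9 searched.

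A part of the nuclear pore and transport genes was lower. Of 39 genes 13 were called lower, none higher and 26 neither, with a median of -0.27. NUP62, of the central channel, read 7.32, 7.74 and 7.51 without and 6.63, 6.71 and 6.84 with infliximab (fell by 0.8 ± 0.13, limma adjusted p = 0.00204). NUP98 read 5.67, 5.67 and 5.7 without and 5.12, 5.09 and 5.08 with infliximab (fell by 0.58 ± 0.1). The untreated spread was wide for NUP62 and narrow for NUP98, and neither gene had overlapping groups. NUP155, NUP205, NUP93, NUP153 and NUP85 fell by 0.63, 0.54, 0.54, 0.51 and 0.48, and the carriers IPO4, XPO5, XPO1, IPO9, KPNB1 and IPO8 by 0.73, 0.41, 0.39, 0.39, 0.37 and 0.35. The count was 4 to 7 when any 1 array was left out and 0 with the spike-in covariate, at a median of -0.29.

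Some splicing and chromatin genes were lower as well. Of 51 spliceosome and SR protein genes 12 fell and none rose (median -0.16), with SF3B3, of the U2 snRNP, at -0.83 ± 0.13, PRPF8, the core U5 protein, at -0.68 ± 0.15 and SNRNP70, of the U1 snRNP, at -0.5 ± 0.1. Of 50 genes of histone modification and DNA methylation 7 fell and 2 rose (median -0.15). EHMT2, a histone H3 lysine-9 methyltransferase, fell by 0.92 ± 0.2, NSD2 by 0.63 ± 0.16 and the maintenance methyltransferase DNMT1 by 0.51. HDAC9 rose by 1.01 ± 0.19 and the acetyltransferase CREBBP by 0.37. With 1 array left out the lower counts were 4 to 8 and 1 to 5, and both were 0 with the spike-in covariate.

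Of 37 genes of ER chaperones and degradation 3 rose, 7 fell and 27 did not pass the test, with a median of -0.05. The 3 that rose were HERPUD1 (0.89 ± 0.11), the transcription factor XBP1 (0.85 ± 0.09) and the sensor kinase ERN1 (0.61). SDF2L1 read 7.44, 7.88 and 7.5 without and 6.52, 6.63 and 6.85 with infliximab (fell by 0.94 ± 0.12, limma adjusted p = 0.000277), and MANF, a secreted ER stress protein, read 8.56, 8.83 and 8.56 without and 7.77, 7.94 and 7.85 with infliximab (fell by 0.8 ± 0.1). CRELD2, CALR, HYOU1, PDIA4 and DNAJB11 fell by 0.86, 0.73, 0.7, 0.48 and 0.26. The central chaperone gene HSPA5 was lower by 0.46 ± 0.08 on 1 probe set and by 0.21, not called, on the other. The rises of XBP1 and HERPUD1 each came from 1 of 2 probe sets, with the other at 0.03 and -0.07. Arrays of CDP870 at 6 h read 7.46, 7.35 and 7.35 for XBP1, above the untreated 7.08, 7.02 and 7.14 and below the infliximab 7.84, 7.98 and 7.98. The lower count was 4 without untreated replicate 3 or infliximab replicate 9 or 10, and with the spike-in covariate 2 rose and 2 fell. Of 37 COPI and COPII vesicle genes 5 fell and none rose, with 3 or 4 lower when an array was left out. Among 46 genes of N-glycosylation and ER translocation 2 rose (4.35%, against 4.52% of all genes) and none fell. No rise was called when untreated replicate 2 or 3 or any infliximab array was left out.

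Proteasome, mitochondrial and iron genes gave smaller groups of decreases. PSMD1, a base subunit of the proteasome's regulatory particle, read 8.38, 8.48 and 8.36 without and 7.76, 7.85 and 7.87 with infliximab (fell by 0.58 ± 0.09, limma adjusted p = 0.00106). In all 6 of 40 proteasome genes fell and none rose (median -0.17), as did 11 of 36 chaperonin and mitochondrial import genes (median -0.23) and 6 of 36 complex I genes (median -0.17). TIMM10, a chaperone of the intermembrane space, fell by 0.6 ± 0.09, CCT7 by 0.56 ± 0.11 and NDUFB10 by 0.58 ± 0.13. TFRC, the transferrin receptor, read 9.54, 9.38 and 9.62 without and 8.77, 8.66 and 8.66 with infliximab (fell by 0.82 ± 0.11, limma adjusted p = 0.000605), and 2 of its 4 probe sets were called. STEAP3, an endosomal ferrireductase, fell by 0.76 ± 0.12 and BLVRA, biliverdin reductase A, by 0.53 ± 0.08, the only other calls among 25 heme and iron genes, of which 1 fell with the spike-in covariate. With 1 array left out the proteasome count was 2 to 4, the import count 5 to 10 and the complex I count 1 to 6 (1 without untreated replicate 3 or infliximab replicate 8 or 9). All 3 were 0 with the spike-in covariate.

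**Figure D4:**
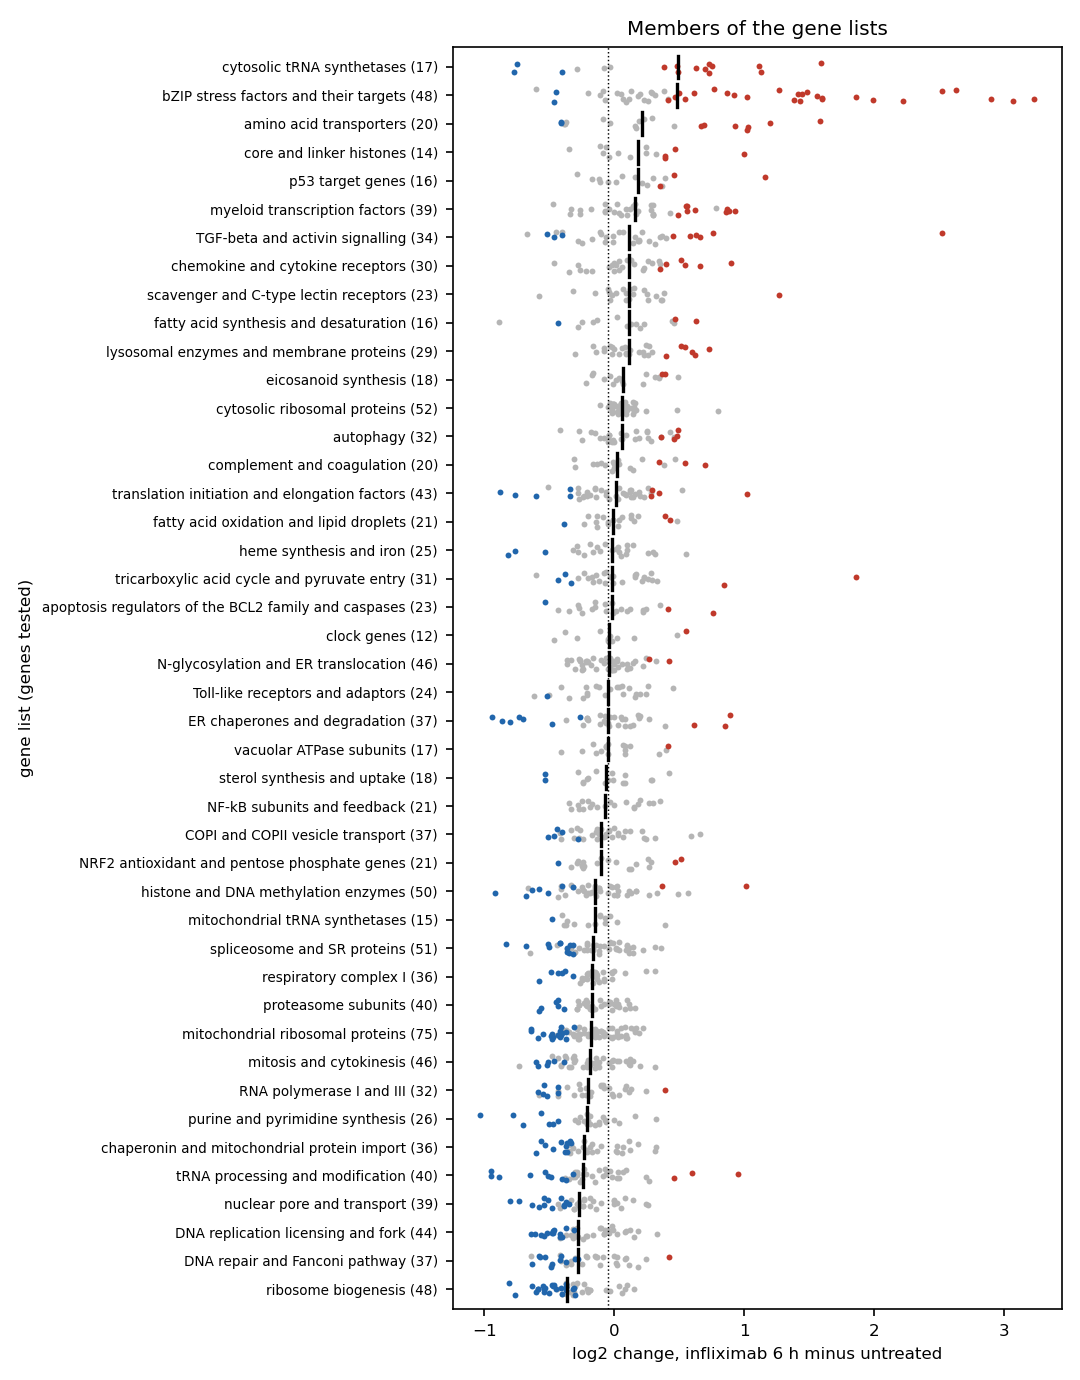
Each row is one of 44 gene lists, with the number of tested genes in brackets, and each point is a gene at its log2 change (infliximab 6 h minus untreated); points are red where called higher, blue where called lower and grey otherwise. Black bars are list medians and the dotted line is the median of all 13607 genes, -0.05. Lists run from ribosome biogenesis at the bottom (-0.36) to cytosolic tRNA synthetases at the top (0.49).

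The smallest called changes were under 0.5 and depended on precise arrays. EIF1 read 9.63, 9.64 and 9.61 without and 10.02, 10.15 and 10.06 with infliximab on the probe set with its smallest p (0.45 ± 0.08, limma adjusted p = 0.00393). PAQR8, a membrane progestin receptor, rose by 0.49 ± 0.09, and DECR1, of polyunsaturated fatty acid oxidation, by 0.48 ± 0.09. RRP7A, of the small subunit processome, read 6.4, 6.41 and 6.44 without and 5.88, 5.95 and 5.99 with infliximab (fell by 0.48 ± 0.08), and SLC43A3, a nucleobase carrier, fell by 0.49 ± 0.08. Groups that do not overlap were a condition of the choice of these genes. None of the 12 named genes of this size was called with the spike-in covariate.

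The target of the antibody and its receptors did not pass the test. TNF read 4.4, 4.2 and 3.77 without and 4.49, 4.08 and 4.27 with infliximab, and the groups overlapped (0.16 ± 0.19, limma adjusted p = 0.66). TNFRSF1A was at -0.14 ± 0.16 and TNFRSF1B at 0.02 ± 0.12. The Fc receptor genes FCGR2A and FCGRT were at 0.16 ± 0.11 and 0.32 ± 0.09 (limma adjusted p = 0.414 and 0.0509), and FCER1G, the signalling gamma chain of Fc receptors, rose by 0.65 ± 0.1. Of 21 NF-kB subunit and feedback genes none was called, with a median of -0.07. Of 24 Toll-like receptor and adaptor genes 1 fell (TAB3, by 0.52), or 4.17% against 5.7% of all genes. Genes of TGF-beta and activin signalling had 6 of 34 higher and 3 lower. The activin subunit INHBE rose by 2.52 ± 0.18, the co-repressor SKIL by 0.76, the decoy receptor BAMBI by 0.63 ± 0.15 and the antagonist FST fell by 0.52 ± 0.14. With 1 array left out 2 to 5 of these rose and 0 to 2 fell, and with the spike-in covariate 1 rose and none fell. The higher count was 5 without untreated replicate 4 and 2 without each other array, and no fall was called without untreated replicate 2 or 3 or infliximab replicate 9 or 10. Of 16 p53 target genes 3 rose (TP53INP1 by 1.16, TNFRSF10B by 0.46 and GADD45A by 0.35), and among 23 apoptosis genes PMAIP1, which encodes NOXA, rose by 0.76 ± 0.15, BCL2 rose by 0.41 (-0.01 as a mean over its probe sets) and BIK fell by 0.53. The p53 count dropped to 1 or 2 whichever array was left out. Of the apoptosis genes 1 or 2 rose and 0 or 1 fell in those settings.

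Some epithelial genes were also higher in this monocytic line. EPCAM, an adhesion molecule of epithelia, read 5.99, 6.04 and 6.06 without and 6.91, 6.99 and 6.7 with infliximab (0.84 ± 0.1, 1.79-fold, limma adjusted p = 0.000137). KRT19, KRT5 and KRT18, keratins, rose by 0.62 ± 0.13, 0.54 ± 0.12 and 0.53 ± 0.12. Of the 6 tested markers of that list 4 rose and none fell, and 1 rose with the spike-in covariate. Their mean log2 value per array was 6.2 to 6.44 in untreated cells, 6.71 to 6.9 after infliximab and 5.82 to 6.08 after CDP870 at 6 h, so the order of the groups had no overlap. In bulk RNA, more cells of a type and more RNA per cell cannot be told apart, and the part of other cells in these values was not tested. Without infliximab replicate 9 the count was 1. No T cell, erythroid, fibroblast or endothelial marker was called, and of 5 B cell and 4 NK cell markers 1 each fell (PAX5 by 0.53, NKG7 by 0.4).

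Against CDP870 at the same hour, 2622 of 28897 probe sets (9.07%) were called, 1473 higher (5.1%) and 1149 lower (3.98%) with infliximab. This comparison shares the 3 infliximab arrays with the one above, so the values are only set side by side. For EIF5 the difference was -0.88 against untreated cells and -0.8 against CDP870, for ATF4 0.87 and 0.84, for WDR4 -0.89 and -0.81, for TUBA1A 0.96 and 0.94, and for EPCAM 0.84 and 1.21. The median of ribosome biogenesis was -0.36 and -0.27, with 23 and 14 genes lower. That of cytosolic tRNA synthetases was 0.49 and 0.44, with 11 and 9 genes higher, and that of nuclear pore genes was -0.27 and -0.33. The count against CDP870 was 1181 to 1688 when 1 of its 6 arrays was left out, 751 with the spike-in covariate, 5117 with only the compared arrays and 5625 without the 3 arrays that stand apart.

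At 24 h of infliximab no probe set differed from 6 h by the limma test (0 of 28897, or 0%), while 3437 had an unadjusted p under 0.05. Without infliximab 24 h replicate 7 the count was 2462, and without replicate 5 or 6 it was 0. On infliximab 24 h replicate 6 the 3' minus 5' differences of the GAPDH and ACTB control probe sets were 0.24 and 0.27, against -0.14 to 0.03 on the other 14 arrays, and the part of this in the 24 h values was not tested. WDR4 read 6.38, 6.62 and 6.25 at 24 h (replicates 5, 6 and 7), above the 6.08, 6.13 and 6.2 of 6 h and below the untreated arrays. EIF5 read 8.9, 8.77 and 9, within or near its 6 h range. EHMT2 read 7.08, 6.89 and 6.11 at 24 h against 6.04, 5.61 and 5.93 at 6 h and 6.59, 6.99 and 6.76 untreated. Replicates 5 and 6, of the set treated as standing apart, lay within or above the untreated range, and replicate 7 did not.

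**Figure D5:**
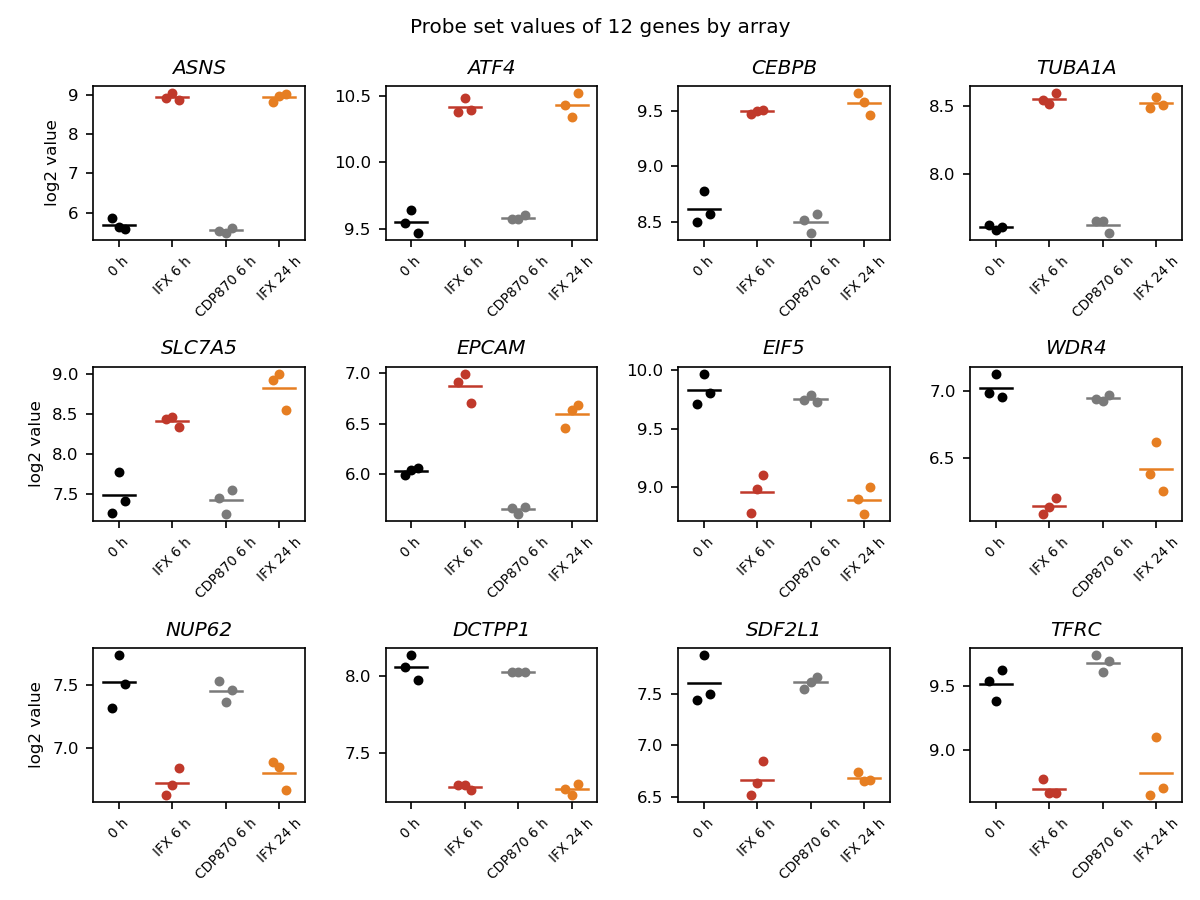
Dots are the log2 probe set values of 12 genes on each array of untreated cells (0 h, black), infliximab 6 h (red), CDP870 6 h (grey) and infliximab 24 h (orange), and lines are group means; each panel has its own vertical axis, which does not start at 0. The genes were picked among those called, so the gap between 0 h and infliximab 6 h is no separate evidence. The 24 h arrays of WDR4 (6.25 to 6.62) lie between its infliximab 6 h and untreated arrays, and those of EIF5 (8.77 to 9) lie near its 6 h arrays.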

How the data were processed

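RNA of THP-1 cells was hybridised to Affymetrix arrays, and the log2 values of 54675 probe sets were used as the authors deposited them. GCOS 1.3.0 and GCRMA were used, per the submitters' processing notes, with no role stated for either, and further upstream steps were not given in the sources used here. Values ran from 0.17 to 11.94. Levels of probe sets were compared for the filter, the brightest probe set of a gene, the bands by level and the marker readings. They were not used to compare amounts of RNA between genes. The arrays' medians are nearly equal, so a change common to most genes might not be seen.

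Probe sets were named through the platform annotation, with symbols updated to RefSeq by Entrez number for 41037 of 41091 probe sets with 1 symbol. Those with several symbols (1801) or none (11721) stayed unnamed. A probe set was tested if it exceeded the array's median on at least 3 of 15 arrays. A group-means model over all 15 arrays was fitted with limma 3.58.1 in R 4.3.3 (lmFit and eBayes, two-sided, Benjamini-Hochberg adjustment over all tested probe sets) and was tested on simulated data. Errors after ± are standard errors of the model unless given as SD, and a fold is 2 to the power of the log2 change. In the 45 gene lists and 7 marker lists the brightest tested probe set stands for a gene, so its value can differ from that of the probe set with the smallest p. Lists were described by counts and medians, and 1 list and 1 named gene are not reported here.

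Named genes were those with the smallest p among calls with 1 symbol and separated groups: 10 increases of 1 or more, 20 of 0.5 to 1, 20 decreases of 0.5 or more and 6 of each direction under 0.5. Up to 5 called members of each list, 2 members of a list without a call, and a fixed set of TNF, Fc receptor and stress genes were added. The text leaves some of these out, and further list members it names were chosen after their values were seen. Members and lists were chosen with earlier results of these data known. Alternatives were other filters, scalings, weights and priors, means per gene, the spike-in level as a covariate, and leaving out arrays. Promoter windows (RefSeq, GRCh38.p14) were found for 10902 of 13607 tested genes.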

Additional observations from a re-analysis of the deposited data

How the results depend on the processing

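Of the 2432 calls against untreated cells, counts became 4588 with array weights (1997 higher, 2591 lower) and 181 with the spike-in level as a covariate (141 higher, 40 lower). With probe sets averaged per gene 1614 of 13607 genes were called (741 higher, 873 lower), against 1391 with 1 probe set per gene, so this count has another base than 2432. With 1 of the 6 arrays left out they ranged from 1156 to 1764 (614 to 906 higher, 542 to 887 lower). The stricter or absent filter, median centring, a second quantile normalization, a trended robust prior, only the compared arrays and leaving out the 3 arrays that stand apart gave 1818 to 3107. Against CDP870 at 6 h the 2622 calls became 6326 with array weights, 1640 (genes, not probe sets) with averaging, 5117 with only the compared arrays, 751 with the covariate, 5625 without the 3 arrays that stand apart and 1181 to 1688 with 1 array left out. Between 24 h and 6 h the count ranged from 0 to 2462 with 1 array left out. The 10 large and 20 moderate increases, chosen for the smallest p, were called in each setting that tested them. With the covariate 5 of the 20 named decreases, all 12 named changes under 0.5 and 144 of 174 list members were lost, and with 1 array left out 33 to 61 list members were lost. With probe sets averaged per gene 24 of 174 list members were lost. Among them were the falls of NOP16, MRPS14, DHODH, SNRNP70, FANCI, POLA2, MCM4, BLVRA and EHMT2 and the rises of SQSTM1 and ETFDH. BCL2, also among them, turned to -0.01 when averaged over its probe sets, and the cause was not tested for any of these. No paired analysis was possible because every array has its own replicate number and no number occurs in more than 1 group. Precision was lowest for weak signals, with a median standard error of 0.14 in the bottom band by level and 0.11 in the top one.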
